A study of Mus musculus with 8 samples.

Results

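NF-YA peaks in muscle stem cells were grouped by gene, and the genes that held 2 or more peaks were examined. A gene entered the group if its identifier stood on 2 or more rows of the deposited peak table. There were 613 such genes among 3978 genes with an assigned peak, and they held 1351 of the 7196 peaks. For each gene the peak with the smallest deposited distance between its centre and the gene start was called the nearest peak, which gave 613 nearest and 738 other peaks, with 0 ties. The choice used gene identifiers and distances and no signal. Most of the genes, 514, had 2 peaks, 81 had 3, 13 had 4, 3 had 5, and 1 each had 6 and 7.

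The libraries were made by CUT&RUN, in which an antibody on permeabilised cells guides a nuclease that releases the DNA around the bound protein for sequencing. They came from activated, proliferating muscle stem cells (MuSCs) of C57BL/6 mice, grown in culture, of the genotypes Control and Taf4asKO. Taf4asKO mice carried Pax7CreERT and *Taf4a* alleles with loxP sites around internal exons, so that tamoxifen removed these exons in *Pax7*-expressing cells. Per the study's methods, controls were littermates that carried the same floxed *Taf4a* alleles, either without the Cre allele or with it, and tamoxifen is named for Taf4asKO alone. Either genotype could also carry a Pax7-ZsGreen reporter. The labels call the controls Control or WT, and which of these alleles the mice behind these libraries had is not stated. There were 2 NF-YA libraries per genotype, and whether they came from separate mice is not stated, so that p-values measure the spread between these libraries. The IgG libraries of the same cells were not analysed here.

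NF-YA is the subunit of the trimeric factor NF-Y that reads the DNA sequence CCAAT, while NF-YB and NF-YC pair through histone-like folds. NF-Y binds promoters, where several CCAAT boxes can stand in a row, as well as sites away from gene starts, and is known for housekeeping, cell cycle and lipid synthesis genes. *Taf4a*, listed as *Taf4* in the table, encodes a subunit of TFIID, the complex that places RNA polymerase II at core promoters. A gene with several NF-YA peaks may have several promoters, a binding site in an intron or upstream, or a neighbour on the same stretch of DNA.

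The sequences below show peaks on which the results turn, as central windows of 200 bases read on the plus strand of mm10, with every CCAAT or its reverse complement ATTGG in capitals. *Fam117a* is shown because its intron peak had more than 2 reads in Taf4asKO cells alone, at chr11:95336699-95336898 for the nearest and chr11:95343154-95343353 for the intron peak. *Med29* is shown as a gene with a strong nearest and a faint other peak, at chr7:28392724-28392923 and chr7:28390406-28390605. *Eif2ak3* is shown for the opposite order, with its strong peak at chr6:70844172-70844371. The *Taf4* windows lie at chr2:179976795-179976994 for the nearest and chr2:179975357-179975556 for the exon peak.
Fam117a nearest: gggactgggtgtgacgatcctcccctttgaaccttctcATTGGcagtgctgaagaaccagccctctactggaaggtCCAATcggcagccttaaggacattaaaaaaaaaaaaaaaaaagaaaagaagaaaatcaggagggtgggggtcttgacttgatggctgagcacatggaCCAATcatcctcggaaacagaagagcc
Fam117a other: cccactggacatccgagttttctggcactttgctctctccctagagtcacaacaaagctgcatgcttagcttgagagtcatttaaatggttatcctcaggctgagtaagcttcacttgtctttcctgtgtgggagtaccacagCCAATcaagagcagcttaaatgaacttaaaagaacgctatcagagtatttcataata
Med29 nearest: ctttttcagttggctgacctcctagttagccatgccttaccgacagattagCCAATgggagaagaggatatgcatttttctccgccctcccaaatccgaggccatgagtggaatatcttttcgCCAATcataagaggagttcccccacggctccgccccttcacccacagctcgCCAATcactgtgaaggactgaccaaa
Med29 other: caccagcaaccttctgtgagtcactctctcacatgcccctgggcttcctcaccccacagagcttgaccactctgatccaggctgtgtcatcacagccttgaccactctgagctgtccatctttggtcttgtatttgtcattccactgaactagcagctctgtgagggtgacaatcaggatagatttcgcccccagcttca
Eif2ak3 other: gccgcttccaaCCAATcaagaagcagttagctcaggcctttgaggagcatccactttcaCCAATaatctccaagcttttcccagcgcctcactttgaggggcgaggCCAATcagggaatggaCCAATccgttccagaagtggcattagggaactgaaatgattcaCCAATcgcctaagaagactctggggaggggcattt
Taf4 nearest: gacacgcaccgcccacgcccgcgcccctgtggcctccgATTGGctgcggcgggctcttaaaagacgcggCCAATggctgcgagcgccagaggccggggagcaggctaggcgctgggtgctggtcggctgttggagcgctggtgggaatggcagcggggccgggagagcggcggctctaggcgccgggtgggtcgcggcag
Taf4 other: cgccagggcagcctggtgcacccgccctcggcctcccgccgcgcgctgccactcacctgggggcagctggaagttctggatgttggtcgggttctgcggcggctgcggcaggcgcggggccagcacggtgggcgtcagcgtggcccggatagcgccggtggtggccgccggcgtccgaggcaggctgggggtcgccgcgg

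The *Eif2ak3* window holds 5 CCAAT, the nearest peaks of *Fam117a* and *Med29* 3 each, and the nearest *Taf4* peak 2. The *Med29* intron window and the *Taf4* exon window hold 0. The strongest other peak of 10 further genes described below is shown by the CCAAT closest to its centre with 11 bases on each side, read so that CCAAT runs forward.
Hnrnpl chr7:28810549-28810575, plus: tagctaggaaaCCAATgagagcgggaa
Coq8a chr1:180196093-180196119, plus: gcagctcacagCCAATagggactgagg
Gpx4 chr10:80053469-80053495, minus: ggcccctgcagCCAATgggaagcctga
Kdm6b chr11:69408705-69408731, plus: cagaaatttagCCAATcacaagacttc
Fdft1 chr14:63177997-63178023, plus: gaaaacgttaaCCAATcggaagccgga
Sin3a chr9:57076064-57076090, plus: tgtgagactctCCAATgagatgtgaag
Scd2 chr19:44284346-44284372, plus: cggcacccgctCCAATcaggaggcgcc
Smad6 chr9:64023052-64023078, minus: ctgcggctgggCCAATcggcgccacgc
Hes6 chr1:91413313-91413339, plus: gcagcctgtagCCAATgagagcggcgc
Cdh15 chr8:122851761-122851787, minus: tgagtgggtgcCCAATgggcaggccac

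The value of a peak in a library is its number of reads after normalisation and rounding by the authors, and values are given below in the order control replicates 1 and 2, then Taf4asKO replicates 1 and 2. Reads in peaks ranged from 111265 in control replicate 2 to 734552 in Taf4asKO replicate 1. Both control libraries had fewer than both Taf4asKO libraries, so that this number and the genotype cannot be told apart. A value of 10 stood for 9.57, 3.07, 23.2 and 14.7 reads in the same order, so that low values are least certain in control replicate 2.

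The nearest peak was usually the stronger one. Its median value over the 4 libraries was 44.5, against 14.5 for the other peaks, 30 for the peaks of genes with a single peak and 17.25 for all peaks. Nearest peaks were also wider, with a median of 225 bases against 156, and per 100 bases the medians were 21.4 and 9.41. By the choice of the nearest peak its distance is the smaller one, with a median of 142 bases for nearest and 2382 bases for other peaks, which reached 10138. Of the nearest peaks 66.1% were upstream of the start, compared with 43.1% of the other peaks.

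To compare the peaks of one gene, the log2 ratio of the nearest peak to the mean of the gene's other peaks was taken in each library after adding 1. The 583 genes were kept in which the nearest peak or the mean of the others reached a value of 10, and 30 were not tested. The median ratio was 1.50 and 1.40 in the control libraries and 1.32 and 1.51 in the Taf4asKO libraries, so that the genotypes overlapped. The means were 1.45 ± 0.07 and 1.41 ± 0.13 (SD, n = 2 each), and the difference of -0.04 had p = 1 in an exact two-sided permutation test, which cannot go below 0.333 in this design. By limma, with Benjamini-Hochberg adjusted p under 0.05, the nearest peak was higher in 369 genes (63.3%) and lower in 136 (23.3%), and 78 genes passed in neither direction. It was above every other peak of its gene in all 4 libraries in 361 genes and below every other peak in 120.

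**Figure D1:**
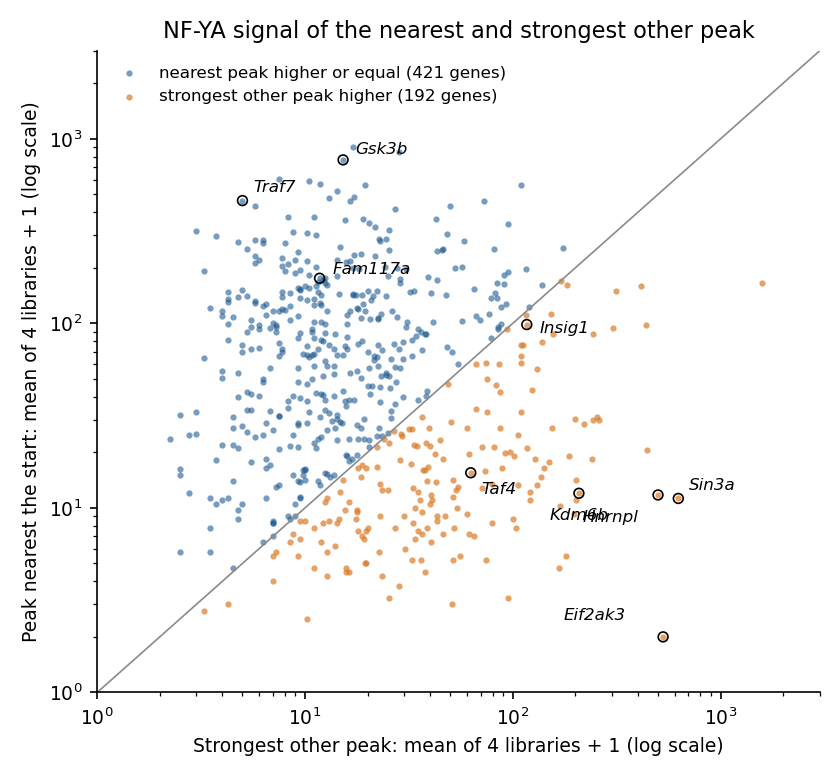
Mean value of the peak nearest the gene start (vertical axis) against the strongest other peak of the same gene (horizontal axis), each with 1 added, on log axes. Each of the 613 points is a gene. The nearest peak is at or above the diagonal in 421 genes and the other peak is higher in 192, and named genes such as *Eif2ak3* and *Traf7* lie far from the diagonal on either side.

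The ratio was widest, among genes whose nearest peak topped every other peak in all 4 libraries, where the other peak was barely covered. *Mvk* encodes mevalonate kinase of the sterol pathway. Its nearest peak, 19 bases inside the gene, read 373, 342, 258 and 295, and its intron peak at 526 bases read 5, 0, 2 and 1. *Traf7*, a ubiquitin ligase gene, read 512, 554, 363 and 417 at its nearest peak, with 4 CCAAT, and 0, 7, 4 and 5 at a peak 907 bases upstream. The log2 ratios were 7.01 ± 0.36 (SE) for *Mvk*, adjusted p = 1.6e-08 by limma, and 6.86 ± 0.38 for *Traf7*, adjusted p = 2.5e-08. The remaining genes of the 8 with the largest ratio were *Mpv17l2*, *Mon1b*, *Ift27*, *Med29*, *Zkscan5* and *Map3k3*, with log2 ratios from 6.00 to 6.56. *Mon1b*, a gene of endosome maturation, read 699, 646, 488 and 600 at its nearest peak against 9, 10, 4 and 3 at a peak 55 bases from it. *Ift27*, of intraflagellar transport, read 486, 424, 373 and 436 against 3, 10, 4 and 2 at 7832 bases upstream. The companion was thus next to the strong peak in the first and far from it in the second. Since the faint peaks often read 0 to 3, the size of these ratios rests on the added 1.

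*Med29*, the gene of a Mediator subunit, read 294, 297, 239 and 271 just upstream of its start. Its intron peak 2203 bases inside the gene read 1, 0, 7 and 7, so that both Taf4asKO libraries were above both controls. These values stood for 0.957, 0, 16.2 and 10.3 reads, and the Taf4asKO libraries had more reads in peaks. The intron peak was below the minimum and was not tested between genotypes. *Med29* entered the ratio test through its nearest peak, and its ratio difference between genotypes did not pass, with adjusted p = 0.0676 by limma.

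In the opposite order, the peak nearest the start was faint and the main one lay elsewhere. *Eif2ak3*, which encodes the endoplasmic reticulum stress kinase PERK, read 1, 0, 3 and 0 at its nearest peak, 209 bases inside the gene, and 584, 597, 440 and 490 at the peak 244 bases upstream. The 2 peaks were 81 bases apart, and the upstream one is the window with 5 CCAAT shown above. The log2 ratio was -8.29 ± 0.34, adjusted p = 4.2e-09 by limma.

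*Hnrnpl*, a splicing regulator gene, and *Coq8a*, needed for coenzyme Q synthesis, had their strong peaks within 1000 bases of another annotated start of the gene. At *Hnrnpl* the peak 89 bases upstream of the assigned start read 17, 10, 10 and 6, and the peak 2050 bases downstream read 581, 558, 422 and 434. The downstream peak was 299 bases from another start of the gene and 94 bases from a start of a different gene, *Gm44702*. At *Coq8a* the peak 1370 bases upstream read 8, 0, 3 and 4, and the peak at 3486 bases, 41 bases from another start, read 178, 173, 146 and 163.

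*Gpx4*, the lipid peroxide-reducing glutathione peroxidase, showed the same arrangement. Its nearest peak, 5048 bases from the assigned start, read 3, 13, 7 and 10, and the peak 13 bases from another of its starts read 215, 228, 158 and 186. *Fdft1*, squalene synthase, read 15, 13, 4 and 5 at its nearest peak and 174, 179, 141 and 178 at a peak 223 bases from another start. At *Hnrnpl* and *Fdft1* the faint peak was still the closer one to an annotated start of the gene, and at *Coq8a* and *Gpx4* the strong one was. With the closest annotated start of each gene in place of the assigned one, the median log2 ratio over genes was 1.37 and 356 genes had the nearest peak highest in all 4 libraries, close to 1.43 and 361 with the assigned start.

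*Was*, *Dcaf11* and *Kdm6b* completed the 8 genes with the lowest ratio among those whose nearest peak was below every other peak in all 4 libraries. *Was*, known from blood cells, had its strong peak of 53, 62, 38 and 47 at 129 bases from a start of another gene, *Gm6787*, and read 1, 3, 1 and 3 at the nearer peak, 944 bases from that start. At *Dcaf11*, an adaptor of ubiquitin ligases, the nearest peak read 23, 13, 18 and 24 and the one 738 bases inside the gene 489, 444, 388 and 452.

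*Kdm6b*, a histone H3K27 demethylase gene, had strong peaks on both sides of a faint one. The nearest peak, in an intron at 1780 bases, read 13, 10, 10 and 11. The peak at 4972 bases, in an untranslated region, read 212, 241, 183 and 192 and held 4 CCAAT, and the peak 5359 bases upstream read 194, 225, 154 and 182 and held 2. Both lay more than 1000 bases from any annotated start.

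Genes with the highest summed control means were *ENSMUSG00000106106*, *Sin3a*, *Agpat1*, *Hdgfl2* and *Gsk3b*. *Sin3a*, the scaffold of a histone deacetylase complex, had a pair of strong peaks inside the gene. The peak at 1584 bases read 342, 313, 283 and 282 with 3 CCAAT, and the peak at 4031 bases read 736, 643, 546 and 574 with 4. The latter was 305 bases from another *Sin3a* start and 58 bases from a start of *2700012I20Rik*. The nearest *Sin3a* peak, at 1189 bases and 122 bases from the one at 1584, read 11, 10, 11 and 9. A further peak, at 3294 bases, read 14, 3, 10 and 7, and the log2 ratio was -4.80.

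*Agpat1* (phosphatidic acid synthesis), *Hdgfl2* (a chromatin reader) and *Gsk3b* (the kinase of Wnt and insulin signalling) had their high peak next to the start. *Agpat1* read 971, 1063, 732 and 821 there and 18, 7, 16 and 23 at its other peak. *Hdgfl2* read 955, 959, 692 and 778 with 0 CCAAT in the central window, and *Gsk3b* read 911, 874, 634 and 652. In each of these genes both Taf4asKO values of the nearest peak were below both control values, with adjusted p from 0.0677 to 0.110 by limma. The same order of the genotypes held in 573 of all 971 peaks with a mean of at least 100, or 59.0%.

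The largest number of peaks, 7, fell to *ENSMUSG00000106106*, a gene of biotype rRNA at the long noncoding genes *Gm26917* and *Gm42418*. All 7 peaks lay between 39843033 and 39846371 on chromosome 17 and held 0 CCAAT in their central windows. The tallest read 1298, 2919, 806 and 1320, and in each of the 7 control replicate 2 had the highest value. Ribosomal DNA occurs in many near-identical copies, and per the study's methods reads with several matches and ribosomal reads were removed before counting, so that the values of this gene are uncertain. *H2aw*, a histone H2A gene, held 6 peaks, of which the nearest read 109, 98, 81 and 80 and one at 5513 bases 109, 75, 86 and 100. The libraries of the genotypes overlapped at the distant one, and the other 4 peaks of *H2aw* reached at most 21.

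**Figure D2:**
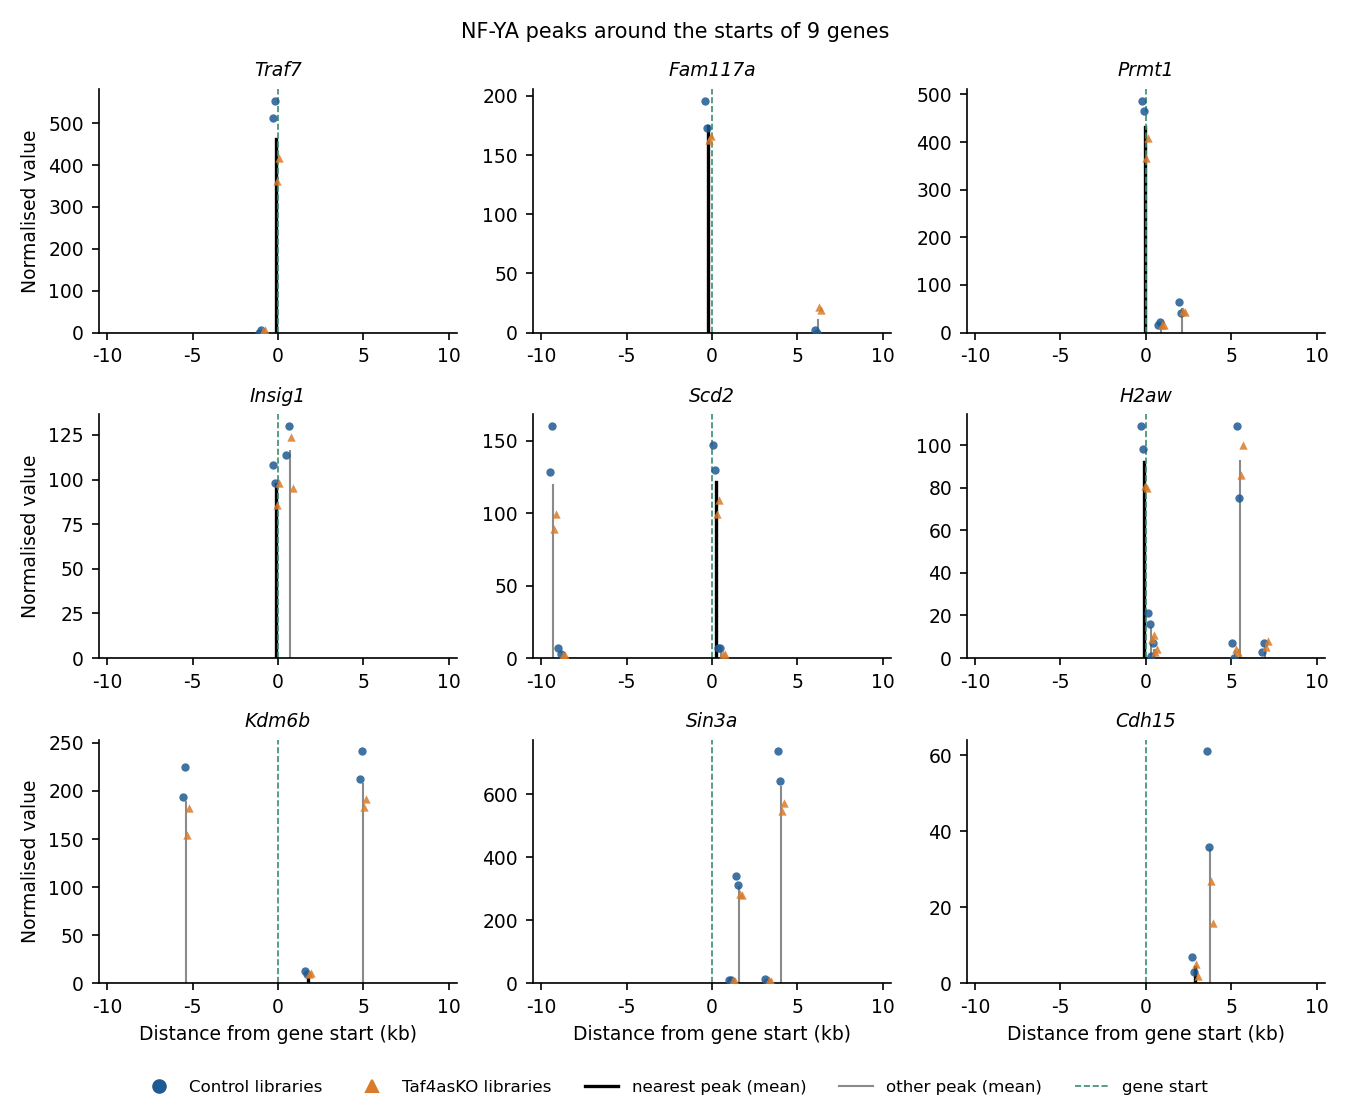
Values of every peak of 9 genes (vertical axis, normalised value) against the distance of the peak centre from the assigned gene start in kilobases (horizontal axis, upstream negative). Lines are means of 4 libraries, black for the nearest peak, and points are libraries, spread sideways for visibility. *Traf7* and *Prmt1* are led by the nearest peak, *Insig1*, *Scd2* and *H2aw* have a pair of similar peaks, and *Kdm6b*, *Sin3a* and *Cdh15* are led by others.

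The other peaks fell into 4 classes by the annotation. A peak near several starts was counted only in the first class that applied. Of the 738, 244 lay within 1000 bases of the assigned start. Of the rest, 75 lay within 1000 bases of another annotated start of the gene and 43 within 1000 bases of a start of another gene. The remaining 376 lay away from all starts. Peaks of the first class could thus also lie near another start of the gene, as at *Hes6* and *Dcaf11*. The median value was 27.25 at other starts of the gene and 29.5 at starts of other genes, compared with 15.6 at the assigned start and 11.25 away from starts. The first class uses the deposited distance. By GENCODE starts alone 361 of the 738, or 48.9% (95% Wilson interval 45.3 to 52.5), were within 1000 bases of a start. Of the peaks away from starts 176 were in introns and 170 intergenic, and 17 reached a value of 100.

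Many other peaks were close companions of the nearest one. The gap between the edges of the peaks was under 100 bases for 84 other peaks, 100 to under 500 for 177, 500 to under 2000 for 181 and 2000 or more for 296. Median values fell over these classes from 22.25 to 16, 13.25 and 12.1. In the 360 genes whose other peaks were all at least 500 bases away the median log2 ratio was 1.42, close to 1.43 over all genes, and of those tested the nearest peak was higher in 216 and lower in 69 by limma.

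**Figure D3:**
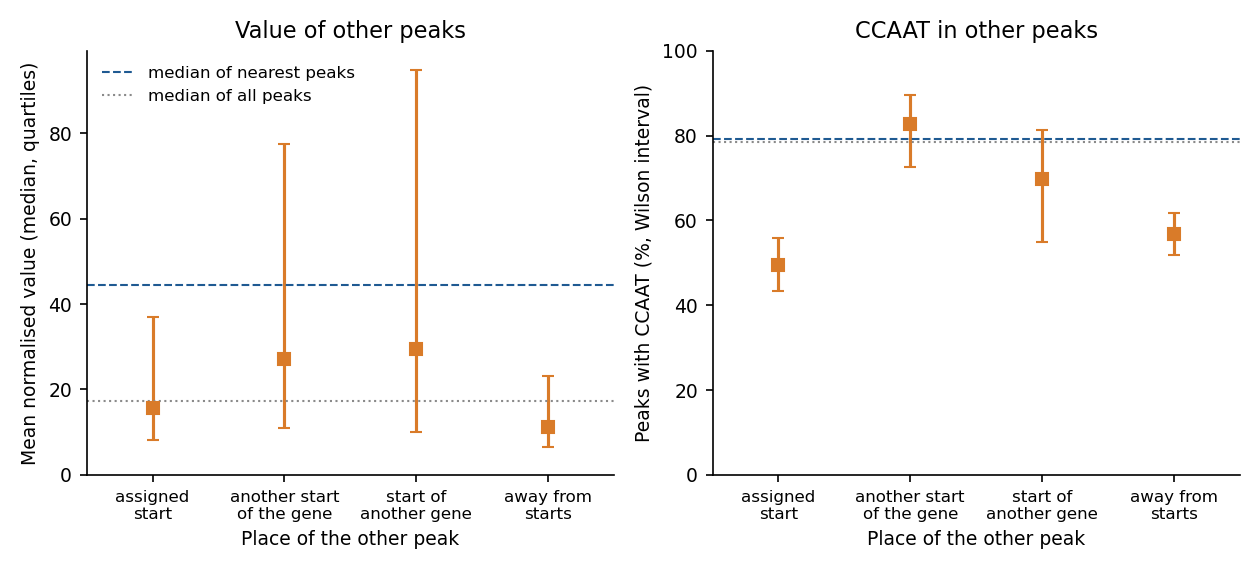
Other peaks by place relative to annotated starts. On the left, the median of the peak means with quartiles as bars, and on the right, the percent with CCAAT in the central 200 bases with 95% Wilson intervals. Dashed lines give the nearest peaks and dotted lines all peaks, and other peaks at another start of the gene carry CCAAT about as often as nearest peaks.

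The genes of the study's own pathway were represented by *Kansl2*, *Prmt1* and *Taf4*, 3 of 10 listed genes with a peak. *Kansl2* encodes a subunit of the NSL histone acetyltransferase complex, and its nearest peak stood 4.14 ± 0.22 above its other peaks on the log2 scale. *Prmt1*, an arginine methyltransferase gene, read 487, 466, 367 and 408 at its start, 16, 23, 16 and 16 at 881 bases and 64, 42, 46 and 44 at 2129 bases, where the window holds 2 CCAAT. At *Prmt1* only the nearest peak had non-overlapping genotypes, with adjusted p = 0.228 by limma. Both Taf4asKO values were below both controls there, as in 59.0% of all 971 peaks with a mean of at least 100. At *Taf4* the order was reversed in control cells and is given with the genotypes below.

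Of the sterol and lipid synthesis genes with a peak, 8 of 18 held 2 or more, among them *Fdft1*, *Insig1*, *Mvk* and *Scd2*. The nearest peak was called higher in 4 and lower in 3 of these 8, compared with 63.3% and 23.3% of all 583 genes, with a median log2 ratio of 0.48 against 1.43. *Scd2*, a stearoyl-CoA desaturase gene, read 147, 130, 99 and 109 at 236 bases and 128, 160, 89 and 99 at 9318 bases upstream, with 2 CCAAT in each window. *Insig1*, a sterol sensor that holds back SREBP processing, read 108, 98, 86 and 98 upstream of its start and 114, 130, 124 and 95 in an intron at 683 bases. The difference passed in neither direction, with a log2 ratio of -0.24 ± 0.14 and adjusted p = 0.120 by limma.

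For the myogenic genes, 5 of 8 with a peak held several, which were *Cdh15*, *Mef2d*, *Myod1*, *Ncam1* and *Pax3*. *Myod1*, the muscle determination factor, read 51, 52, 26 and 20 at its start and 15, 29, 16 and 5 at 4240 bases, past the end of the gene. *Cdh15*, which encodes M-cadherin of satellite cells, read 7, 3, 5 and 2 at its nearest peak and 61, 36, 27 and 16 in an intron at 3778 bases. *Ncam1* had 3 intron peaks between 13 and 32, of which the nearest read 32, 26, 19 and 17. At *Mef2d*, a MEF2 factor gene, the other peak, 1998 bases upstream, read 24, 13, 43 and 62, so that both Taf4asKO values were above both controls, with a log2 fold change of 1.49 and adjusted p = 0.0819 by limma. Over the 9 tested peaks of the list the median log2 fold change between genotypes was -0.34 with 0 calls by limma, against -0.04 and 45 calls over all tested peaks. Both Taf4asKO libraries were below both controls at 3 of the 9, the nearest *Myod1* and *Ncam1* peaks and the *Cdh15* intron peak, with adjusted p = 0.0812, 0.283 and 0.142 by limma, and above both at 1, the *Mef2d* peak. Over all 3775 tested peaks with a mean from 10 to under 100 these orders held in 20.8% and 23.5%.

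The nearest peak was called higher in all 5 genes of the endoplasmic reticulum list with several peaks (*Dnajb11*, *Herpud1*, *Hspa5*, *Sdf2l1* and *Xbp1*), with a median log2 ratio of 4.24, and in 8 of 9 genes of the histone list, with a median of 1.90, against 63.3% of genes and a median of 1.43 over all 583. *Eif2ak3* is not on the first of these lists. *H2aw* is among the 8 by the mean of its other peaks, although one of these was as high as or higher than its nearest peak in 3 of 4 libraries. *Hspa5*, which encodes the chaperone BiP, read 272, 294, 215 and 254 with 4 CCAAT at its start and 6, 13, 16 and 20 at 1664 bases upstream. *Dnajb11* and *Sdf2l1*, which assist BiP in the endoplasmic reticulum, had their faint peaks 154 and 120 bases from the strong one, inside the gene at *Dnajb11* and upstream at *Sdf2l1*. *Dnajb11* read 267, 297, 237 and 285 against 4, 7, 7 and 3. *Sdf2l1* read 224, 238, 147 and 170 against 8, 7, 9 and 10, and both Taf4asKO values of its nearest peak lay below both controls, with adjusted p = 0.112 by limma. *Hspa8*, the constitutive cytosolic chaperone, read 222, 225, 191 and 231 at its start and 19, 16, 11 and 16 upstream. Of the histone genes, *H2az2* read 353, 372, 287 and 311 at its start and 19, 16, 23 and 25 in an intron, and *H2bc3* read 256, 254, 169 and 197 at its start and 9, 0, 4 and 7 at 562 bases upstream. The genotypes did not overlap at the starts of *H2az2* and *H2bc3*, with adjusted p = 0.278 and 0.139 by limma. At these and at *Sdf2l1* both Taf4asKO values were below both controls, as in 59.0% of all 971 peaks with a mean of at least 100. Both genes of the cell cycle list with several peaks, *E2f3* and *Cdkn1c*, had the higher peak next to the start, with log2 ratios of 3.68 and 2.62. *Gmnn*, the gene of the replication inhibitor geminin, is not on that list and had the opposite order, with 13, 7, 10 and 10 at its nearest and 37, 36, 39 and 48 at its other peak.

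Among growth and stress factors, *Fosb* and *Klf10* had a higher nearest peak and *Srf* passed in neither direction. *Srf*, the serum response factor, had nearly equal peaks of 169, 209, 117 and 148 at its start and 220, 186, 148 and 173 at 3102 bases, where the microRNA gene *Mir6976* starts nearby. *Klf10*, a TGF-beta inducible factor, read 143, 160, 119 and 126 at its start and 80, 72, 80 and 99 at 1554 bases. This second peak lay 70 bases from another start of the gene and, in distinction to the first, had Taf4asKO values at or above both controls.

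In the Notch, Wnt and TGF-beta list the nearest peak was lower in *Smad6* and *Hes6* and passed in neither direction in *Heyl*. *Smad6*, an inhibitor of BMP signalling, read 30, 23, 19 and 23 at its start and 100, 121, 90 and 108 at 1005 bases upstream. *Hes6* read 16, 10, 10 and 4 at its start and 128, 114, 104 and 135 at 724 bases, 92 bases from another start. *Heyl*, a Notch target, had a pair of weak peaks beyond 5 kilobases upstream, of 28, 26, 19 and 17 and of 17, 26, 13 and 12.

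For the matrix genes *Col5a1* and *Sparc* the nearest peak was higher. *Col5a1*, a fibrillar collagen gene, read 48, 59, 42 and 46 in an intron at 2578 bases and 3, 7, 5 and 6 at 2906 bases. *Sparc*, a matrix glycoprotein gene, read 41, 29, 47 and 30 at 801 bases upstream and 13, 7, 10 and 7 at 5148 bases upstream. Of the 2 genes of the chromatin list with several peaks, the nearest peak was lower in *Kdm6b*, described above, and passed in neither direction in *Jarid2*. Of the RNA-binding list, on which *Hnrnpl* does not stand, 3 genes had a peak and 0 held several.

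CCAAT was more frequent in nearest than in other peaks. The 5 letters, or ATTGG on the other strand, were in the central 200 bases of 79.1% (75.7 to 82.1) of the nearest peaks and 57.9% (54.3 to 61.4) of the other peaks, compared with 86.1% of single peaks, 74.0% of peaks without a gene and 78.5% of all peaks. In windows of the same length centred 1000 bases to either side, 22.5% held it for nearest and 25.5% for other peaks. At least 2 CCAAT were in 48.3% of the nearest and 24.8% of the other peaks.

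The share rose with the value of the peak. From under 10 to 10, 30 and 100 or more it was 44.3, 70.6, 91.2 and 93.5% of the nearest peaks and 41.4, 56.3, 81.8 and 82.5% of the other peaks. At matched values the Wilson intervals of nearest and other peaks were apart from 10 to under 30, at 63.1 to 77.1% against 50.3 to 62.1%, and overlapped in the other 3 classes. The share was larger for nearest peaks in every class. Overlap of the intervals does not show equal shares, and a difference of shares was not tested. All 17 other peaks away from starts with a value of 100 or more held CCAAT.

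**Figure D4:**
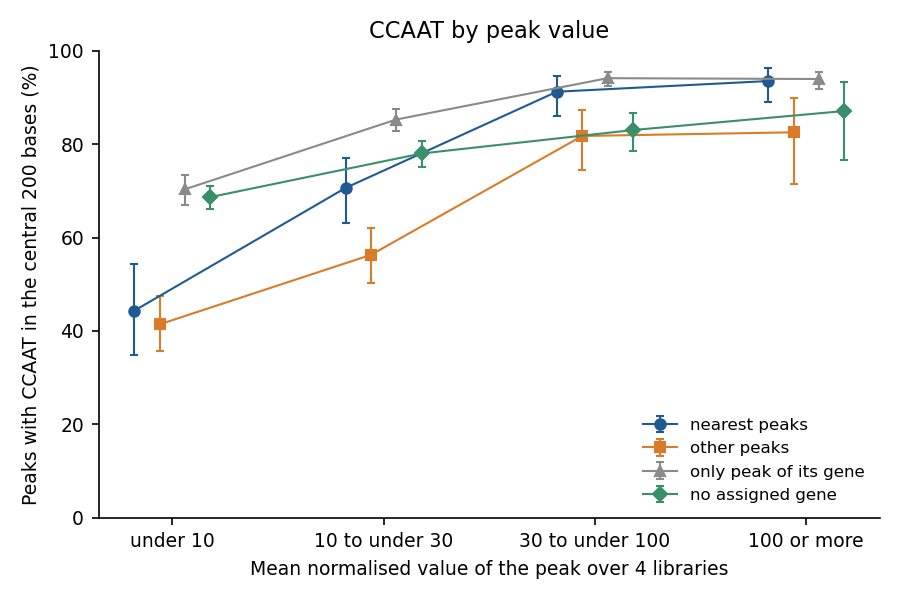
Percent of peaks with CCAAT or its reverse complement in the central 200 bases (vertical axis) by the mean value of the peak over 4 libraries (horizontal axis), with 95% Wilson intervals. Nearest and other peaks of genes with several peaks start near 44.3 and 41.4% under a value of 10, below the peaks of single-peak genes at 70.3%, and reach 93.5 and 82.5% from 100 upwards.

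Taken by gene, CCAAT followed the stronger peak. In the 369 genes with a higher nearest peak, 91.9% of the nearest and 52.3% of the strongest other peaks held it, and in the 136 genes with a lower nearest peak 50% and 84.6%. Of all 613 genes 287 had CCAAT in both windows, 198 in the nearest alone, 95 in the strongest other alone and 33 in neither. By place, peaks near both kinds of start were counted at the assigned one. CCAAT was in 82.7% (72.6 to 89.6) of the other peaks at another start of the gene. It was in 49.6% (43.4 to 55.8) of those at the assigned start and 56.9% (51.9 to 61.8) of those away from starts.

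Where a window held several CCAAT, neighbours were a median of 41 bases apart in nearest and 42 in other peaks, and 48.8% and 47.6% of the spacings were between 25 and 45 bases. Neighbours ran on the same strand in 69.2% and 68.9%, compared with 63.0% in single peaks. In the *Eif2ak3* and nearest *Med29* windows above all CCAAT run on one strand.

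To find out whether the loss of TAF4A changed the peaks of these genes, both genotypes were compared with limma on log2(value + 1) over all 4746 peaks with a mean of at least 10. Of these 45, or 0.948%, had an adjusted p under 0.05. Among the 986 peaks tested here 4 were called, or 0.406%, of which 2 were nearest and 2 other peaks. The other 365 peaks were below the minimum. At an unadjusted p under 0.05, 85 nearest peaks passed, of which 78 were lower in Taf4asKO, and 75 other peaks, of which 50 were lower. Together these were 16.2% of the peaks tested here, near the 849 of all 4746, or 17.9%, of which 519 were lower. Of the 986 peaks 93.9% changed by less than 2-fold, compared with 92.4% of all tested peaks.

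Among the tested peaks of these genes, *Taf4* itself had the one with the smallest p-value, which ranked 4 over all tested peaks. The peak 1190 bases inside the gene read 99 and 117 in control cells and 13 and 18 in Taf4asKO cells. The log2 fold change was -2.74 ± 0.25 (SE), adjusted p = 0.00112 by limma. This peak, of 79 bases, lay in the coding part of exon 1, 4 bases from the downstream end of that exon, and not in the exons flanked by loxP sites. Its central window holds 0 CCAAT. The peak nearest the *Taf4* start, 248 bases upstream with 2 CCAAT, read 14, 20, 10 and 14, adjusted p = 0.550 by limma. The exon peak was thus the higher one in control cells and about level with the nearest peak in Taf4asKO cells. The difference of the log2 ratio of nearest to other peaks between genotypes was 1.94. It did not pass over all genes, with adjusted p = 0.174 by limma.

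*Dnajb5*, a heat shock protein gene, had a lower intron peak in Taf4asKO cells. The intron peak, at 3966 bases and 686 bases from another start, read 86, 65, 33 and 22, with a log2 fold change of -1.44 ± 0.27 and adjusted p = 0.0473 by limma. The nearest peak read 211, 176, 199 and 208, adjusted p = 0.810. The difference between these ratios did not pass over all genes, with adjusted p = 0.0676.

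Signal rose at the nearest peaks of *Vmn1r43*, a vomeronasal receptor gene, and of the long noncoding gene *ENSMUSG00000114843*. The first, 763 bases upstream of the start, read 23, 20, 66 and 49, with a log2 fold change of 1.37 ± 0.26 and adjusted p = 0.0475 by limma. The second, 5980 bases upstream, read 36, 46, 103 and 92, with 1.24 ± 0.21 and adjusted p = 0.0343. Their other peaks read 3, 10, 6 and 1 and 1, 7, 5 and 3.

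Apart from the *Taf4* peak the adjusted p of the 4 calls lay between 0.0343 and 0.0475. With no minimum 0 calls were left both here and over all peaks, and the adjusted p of these 4 ranged from 0.164 to 0.285. With the replicate block *Vmn1r43* and *ENSMUSG00000114843* no longer passed, with adjusted p = 0.0709 and 0.0589, and with equal library totals *Dnajb5* did not, with adjusted p = 0.0536. When any 1 of the 4 libraries was omitted, which leaves a single library in 1 genotype, 0 calls were left both here and over all peaks. The log2 fold changes of these peaks then ranged from -2.96 to -2.52 for *Taf4*, from -1.72 to -1.16 for *Dnajb5*, from 1.16 to 1.58 for *Vmn1r43* and from 1.07 to 1.41 for *ENSMUSG00000114843*. With library scaling to equal medians of the tested peaks 30 peaks, or 3.04%, passed, 21 of them nearest peaks, next to 129 of all tested peaks, or 2.72%.

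Strong peaks were slightly lower in Taf4asKO cells wherever they lay. The median log2 fold change was -0.15 over the 516 tested nearest peaks and -0.09 over the 470 tested other peaks, against -0.04 over all tested peaks. From a value of 100 upwards it was -0.23 for nearest, -0.28 for other and -0.22 for all peaks, and 91.4% of the nearest and 93.7% of the other peaks were lower, compared with 84.7% of all. From 10 to under 30 the medians were 0.00, 0.03 and 0.12. With equal library totals the medians from 100 upwards were -0.09 for nearest, -0.14 for other and -0.08 for all peaks. Over all values they were then -0.01 for nearest, 0.05 for other and 0.10 for all tested peaks, so that the sign of the last pair turned. From 100 upwards 71.4% of the nearest, 85.7% of the other and 67.1% of all peaks were lower with equal library totals.

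**Figure D5:**
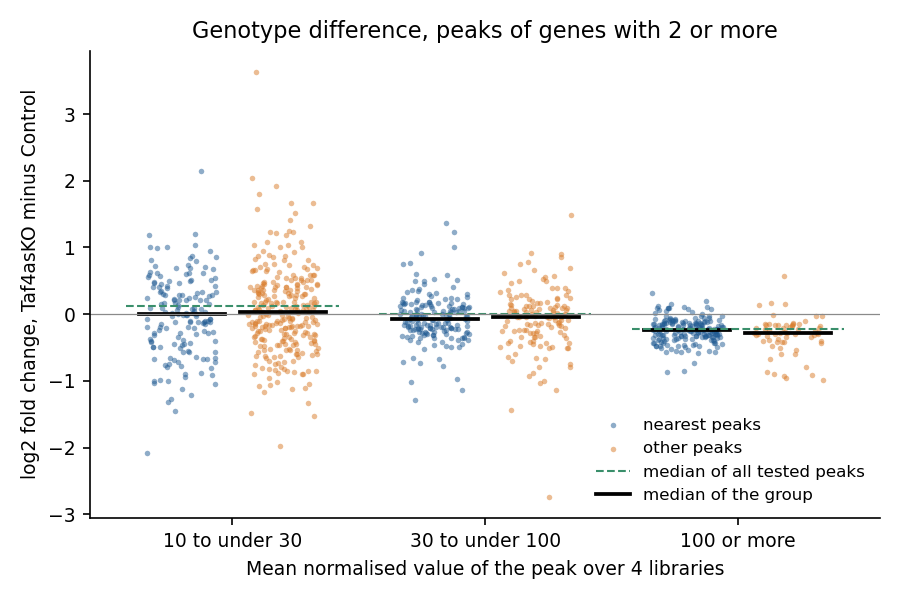
Log2 fold change of each tested peak, Taf4asKO minus Control (vertical axis), by its mean value over 4 libraries (horizontal axis), with the median of each group as a black bar and the median of all tested peaks as a dashed line. From a value of 100 upwards the medians are -0.23 for nearest and -0.28 for other peaks, next to -0.22 for all peaks.

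Peaks of one gene did not always share a sign. In the 352 genes whose nearest and strongest other peak were both tested, both were lower in 144, both higher in 55, and they had opposite signs in 152. These signs count changes of any size, and whether they differ from those of unrelated peaks was not tested.

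The balance between the peaks of a gene differed between genotypes in 1 of 583 genes, or 0.172%, with 74 at an unadjusted p under 0.05. The number depended on the settings, with 35 genes for a pseudocount of 5, 4 with the replicate block, 21 without control replicate 1, 4 without control replicate 2 and 2 without Taf4asKO replicate 1. The 1 gene was *Fam117a*. Its nearest peak, 220 bases upstream with 3 CCAAT, read 196, 173, 163 and 166, so that the Taf4asKO values were just below the controls. The intron peak at 6235 bases read 2 and 0 in control cells and 22 and 19 in Taf4asKO cells, and its window, shown above, holds 1 CCAAT. The adjusted p of the change in ratio was 0.0166 by limma, and from 4.4e-06 to 0.0251 with the pseudocount of 5, no minimum, other scalings or the block. The difference of the log2 ratio was -3.79, and from -4.50 to -3.09 with single libraries left out. All these settings reuse the same peak, so that they are no separate support. The control values stood for 2 and 0 reads and the Taf4asKO values for 51.0 and 27.9 reads, so that the size of the change depends on the added 1. The intron peak alone did not pass over all peaks, with adjusted p = 0.0677 by limma. It reached the minimum of that fit only through the Taf4asKO libraries, which also had more reads in peaks.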

How the data were processed

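NF-YA CUT&RUN was measured in 2 control and 2 Taf4asKO libraries of cultured MuSCs. Per the submitters' processing notes, reads were trimmed with Trimmomatic 0.39, aligned to mm10 with STAR 2.7.11a, cleared of duplicates with Picard 3.1.1 and counted with featureCounts. The methods also name the removal of spliced, mitochondrial, ribosomal and multiply aligned reads. Per the methods, the authors called peaks with MACS, unified them over samples, and assigned each to the nearest gene start. The deposited score of a peak is its read count normalised by the authors with DESeq2 1.36.0 and rounded. Whether peak starts count from 0 or 1 is not stated, and coordinates are used as given. Groups and replicate numbers came from the labels, and 0 value columns were left unmapped.

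Members, gene lists and tests were chosen with earlier results of these data known. The value of 1 read was found from the steps between values. No count model was run, since rounding hides single reads in the Taf4asKO libraries. Differences were tested on log2(value + 1) by limma 3.58.1 (R 4.3.3), which understates changes of low peaks, for a minimum mean of 10, with a variance trend over the mean and Benjamini-Hochberg adjustment. The minimum applied to peaks for genotypes, and to the nearest peak or the mean of the others for ratios. The fits were tested on simulated data. Shares have 95% Wilson intervals, which cover counting error only. GENCODE M21 on GRCm38 (mm10) gave starts and features, and contained 610 of the 613 gene IDs. Sequences are from RefSeq GRCm38.p6 (mm10). The CCAAT box, the GC box GGGCGG, the AP-1 motif TGANTCA and the E-box CANNTG were searched on both strands of the central 200 bases. Python 3.11.15, scipy 1.17.1 and pysam 0.24.0 were used.

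Genes were named by rule: the highest peak numbers, the study's genes, the 8 highest and 8 lowest called ratios with the nearest peak on the same side of every other peak in all libraries, the 5 highest summed control means, all genes with a call between genotypes or for the ratio difference, and up to 3 per list by control mean. Some genes that met the rule are not reported here. The *Mef2d* values, *Gmnn* and the statement on *H2aw* were added after the values were seen. The lists cover histone, cell cycle, endoplasmic reticulum, chaperone, sterol and lipid, myogenic, growth factor, matrix, signalling, RNA-binding and chromatin genes. Alternatives were another pseudocount, no minimum, other scalings, the replicate block, omission of each library, the strongest other peak, values per length, a wider gap, other motif windows and other start definitions.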

Additional observations from a re-analysis of the deposited data

How the results depend on the processing

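The excess of nearest over other peaks kept its direction in every alternative tried, but its size and the few genotype calls moved. Of 81 comparisons with an alternative 54 stayed within 1.5 times the count or within the replicate spread or interval, and 27 did not. The median log2 ratio of 1.43 was 1.24 with a pseudocount of 5 and 1.07 per 100 bases, and 1.41 to 1.47 without single libraries. With 500 or more bases between peaks fewer genes could enter, and the nearest peak was higher in 216, lower in 69 and highest in all libraries in 211. Without single libraries 343 to 371 genes were higher and 116 to 139 lower. The 4 genotype calls became 0 with no minimum, 9 with equal totals and 30 with equal medians, while the 45 calls over all peaks became 0, 61 and 129. Without each single library, with 1 library left in 1 genotype, both numbers were 0. The ratio differences between genotypes numbered 1, but 35 with a pseudocount of 5, and 1 to 21 without single libraries, of which 21 were without control replicate 1. The cause was not tested. The median genotype change was -0.010 for nearest and 0.047 for other peaks with equal totals and -0.026 for other peaks with no minimum. Without single libraries it ranged from -0.236 to -0.0882 for nearest and from -0.112 to -0.0394 for other peaks. In the central 100 bases CCAAT was in 65.3% of the nearest and 48.6% of the other peaks, and with the wider gap in 61.8% of the other peaks. Within 500 bases of a start lay 33.9% of the other peaks.

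With the replicate block 7 member peaks were called, 0 nearest and 7 other, and 4 ratio differences. Replicates of the same number did not deviate together, with a correlation of -0.09 over 2 pairs, so that the numbers do not establish a pairing.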

Other observations

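Other sequence features of the peaks also differed by place. The GC box GGGCGG was in 48.0% of the nearest and 24.7% of the other peaks, compared with 39.9% of single peaks, 7.42% of peaks without a gene and 27.8% of all peaks. The AP-1 motif TGANTCA, read by FOS and JUN dimers, went the other way, with 11.7% of the nearest, 26.4% of the other and 23.9% of all peaks. It was in 36.4% of the other peaks away from starts, close to 37.7% of peaks without a gene, and in 15.5% of single peaks. The E-box CANNTG, the site class of MYOD1, was in 54.3% of the nearest and 65.4% of the other peaks, against 63.7% of all peaks. Over all peaks the GC box was more frequent and AP-1 less frequent at higher values of the peak. Under a value of 10 AP-1 was in 35.05% of the nearest and 33.96% of the other peaks, and the Wilson intervals for the GC box overlapped. From 10 to under 30 AP-1 was in 13.75 and 28.5% and the GC box in 36.25 and 19.3%. All these motif counts are matches of letters and not measured sites.

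Genes that are not protein-coding contributed 193 of the peaks. Their nearest peaks had a median value of 15.0 and their other peaks of 12.0, with CCAAT in 59.6 and 54.8%, so that the contrast seen over all genes was small there. Genes with 4 or 5 peaks were also looked at, and the following were chosen after their values were seen. *Mamstr*, a coactivator of MEF2 in muscle, read 33, 46, 18 and 19 at its nearest peak, and 261, 277, 234 and 259 at 3798 bases, with 4 CCAAT. *Cirbp*, the cold-inducible RNA-binding protein, read 34, 39, 18 and 25 at its start and 256, 297, 198 and 221 at 1550 bases, 243 bases from another start. *Map2k3* had a peak 4473 bases upstream of 116, 130, 91 and 97, and one at 1737 bases of 30, 26, 47 and 48, so that the Taf4asKO values were below both controls at the first and above them at the second, with adjusted p = 0.277 and 0.159 by limma, and 70, 78, 73 and 79 at the nearest peak. *Rrm2*, a subunit of ribonucleotide reductase, had similar peaks of 32, 33, 21 and 33 at its start, 31, 20, 23 and 23 at 580 bases upstream and 36, 29, 18 and 17 at 1316 bases upstream.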
